A study of Mus musculus with 9 samples.

Results

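The 36 genes described here encode the machinery that takes fatty acids into a cell and oxidizes them. They comprise 3 uptake proteins, 4 long-chain acyl-CoA synthetases, 4 proteins of the carnitine shuttle, 12 mitochondrial beta-oxidation proteins, 3 proteins of electron transfer, 5 peroxisomal proteins and 5 regulators or targets of fatty acid sensing. They were chosen by gene symbol from what the genes encode, with earlier results of these data known. All 36 symbols were found among the 59445 features of the deposited table. RNA sequencing had been done on F4/80+ CD11b+ macrophages sorted from the liver cells of male C57BL/6 mice, 24 hours after the hepatotoxin carbon tetrachloride (CCl4) had been given as 1 injection into the peritoneum, at 0.6 mg/kg as labelled. The unit of that dose could not be checked. The tested genotype was MAGL Mye-/- (5 libraries, S8 to S12), whose label names a deletion in myeloid cells, and the controls were MAGL fl/fl (4 libraries, S1, S3, S4 and S5), labelled WT, which carry the floxed alleles. Mgll encodes MAGL, monoacylglycerol lipase, which hydrolyses monoacylglycerols, among them 2-arachidonoylglycerol, to a fatty acid and glycerol. The sources used here give neither the Cre driver nor the deleted exons. Every mouse had received CCl4, so no uninjured liver enters any comparison. Mye-/- S9, S10 and S11 came from mice aged 10 weeks, whereas S8, S12 and all 4 fl/fl mice were aged 11 weeks, which ties age in part to genotype. The p-values below assume that each library came from its own mouse.

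A long-chain fatty acid that crosses the plasma membrane, with help from the scavenger receptor CD36 and fatty acid transport proteins, is joined to coenzyme A by an acyl-CoA synthetase. The acyl group then enters mitochondria as a carnitine ester, is shortened by repeated cycles of dehydrogenation, hydration, dehydrogenation and thiolysis, and passes electrons through electron transfer flavoprotein to ubiquinone in the respiratory chain. Very long chains are first shortened in peroxisomes. In macrophages, fatty acid oxidation has been studied most in alternatively activated and lipid-laden cells, and PPAR transcription factors and their coactivators regulate many of these genes in other tissues.

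The 250 bases before the annotated start of the 3 electron transfer genes are printed first, because these were the role in which all members had a lower mean in MAGL Mye-/- macrophages. The stretch before Hadhb is printed because it lies between Hadha and Hadhb, which encode the subunits of 1 enzyme and are transcribed away from each other, with 272 bases between their starts. The sequences are from RefSeq (GRCm38.p6), read 5′ to 3′ on the strand of the gene: Etfa at chr9:55512244-55512493 (minus strand), Etfb at chr7:43443822-43444071 (plus strand), Etfdh at chr3:79628768-79629017 (minus strand) and Hadhb at chr5:30155003-30155252 (plus strand). Capitals mark matches to the searched motifs.
Etfa: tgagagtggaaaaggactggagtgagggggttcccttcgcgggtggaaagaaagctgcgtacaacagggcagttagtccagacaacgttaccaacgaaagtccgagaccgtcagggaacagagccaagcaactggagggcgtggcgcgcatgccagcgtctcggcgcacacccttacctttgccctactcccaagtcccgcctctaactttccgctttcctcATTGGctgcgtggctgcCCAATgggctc
Etfb: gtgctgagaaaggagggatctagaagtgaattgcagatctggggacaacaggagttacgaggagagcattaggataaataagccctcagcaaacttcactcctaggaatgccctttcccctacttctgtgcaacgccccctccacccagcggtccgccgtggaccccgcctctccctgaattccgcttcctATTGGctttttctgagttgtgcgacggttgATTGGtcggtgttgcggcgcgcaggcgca
Etfdh: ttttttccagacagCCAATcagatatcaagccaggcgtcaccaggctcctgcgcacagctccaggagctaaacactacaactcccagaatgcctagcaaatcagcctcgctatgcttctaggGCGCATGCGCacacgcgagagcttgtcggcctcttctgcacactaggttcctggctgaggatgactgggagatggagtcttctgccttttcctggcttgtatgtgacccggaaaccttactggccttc
Hadhb: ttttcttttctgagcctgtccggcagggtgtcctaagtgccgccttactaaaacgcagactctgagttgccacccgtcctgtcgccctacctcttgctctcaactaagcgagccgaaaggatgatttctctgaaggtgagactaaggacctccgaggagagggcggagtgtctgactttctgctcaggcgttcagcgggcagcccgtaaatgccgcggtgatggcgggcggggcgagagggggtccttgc
The Etfa stretch held CCAAT 11 bases before the start and its reverse complement ATTGG 28 bases before it. The Etfb stretch held ATTGG 59 and 29 bases before the start. The Etfdh stretch held CCAAT 236 bases and the palindrome to which NRF-1 binds 128 bases before the start. The Hadhb stretch held no match to the letters searched.

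Of the 36 genes, 31 matched a promoter table by symbol, with 36 windows of 250 bases before to 50 bases after a start. CCAAT, which was added to the search after these sequences had been read, was in 18 of the 36 windows and in 37.4% of all 32851 windows. That palindrome, searched as the 10 letters capitalized in the middle of the Etfdh stretch, was in 2 (Etfdh and Ppara), against 0.971% of all windows. The ETS letters CCGGAAGT were in 2 (Cpt2 and Slc25a20), against 3.89%. TATAAA was in 1 (Pparg), against 13.6%, and the E-box CACGTG was in 1 (Slc27a1), against 7.15%. The PPAR direct repeat, which is 2 copies of AGGTCA with 1 base between them, and the estrogen-related receptor element TCAAGGTCA, both searched as exact letters, were in 0 of the 36 windows, against 0.0396% and 0.423% of all windows. Both strands were searched, and no motif was contained in another. The median GC content was 59.6% in the 36 windows and 52.4% in all windows.

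Values are normalized reads, which are read counts divided by 1 size factor for each library and not by gene length. Library totals ran from 35691354 to 46489349 reads in Mye-/- and from 33383559 to 43884866 reads in fl/fl. The fl/fl libraries S3 and S4 stood apart from the other 7 on the first principal component, at 113.9 and 168.1 against -56.1 to -6.60. The floor of 3 reads corresponded to 2.41 to 3.58 normalized reads. Mgll itself was low in both groups, with 30.4, 46.6, 5.93, 42.7 and 0 normalized reads in Mye-/- S8 to S12, against 18.6, 0, 106.5 and 22.8 in fl/fl S1, S3, S4, S5. The groups overlapped (limma adjusted p = 0.985), so these transcript values do not check the genotype labels. The sort markers were abundant. Itgam, which encodes CD11b, averaged 49711 ± 4679 in Mye-/- and 48739 ± 7072 in fl/fl, and Adgre1, which encodes F4/80, averaged 6443 ± 1054 in Mye-/- and 5433 ± 658 in fl/fl (SD, n = 5 and 4, as for all means below). The summed level of 10 macrophage identity genes, these 2 among them, was 298495 to 366312 in Mye-/- and 361000 to 569903 in fl/fl. By mean log2 value, 8 of the 10 were higher and 2 lower in Mye-/-.

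Other cell types were traced by marker lists. The summed level of 20 hepatocyte genes was 59175 to 78632 in Mye-/- and 66474 to 105583 in fl/fl, most of it from Hp and Trf, and the hepatocyte gene Tat was at 0 in all 9 libraries. Alb was 656 to 7085 in Mye-/-, S10 being the highest, and 346 to 1224 in fl/fl. The sum of 9 erythroid and platelet genes was 2654 to 6901 in Mye-/- and 5908 to 35204 in fl/fl, highest in S3, and that of 10 neutrophil genes was 12198 to 33788 in Mye-/- and 24892 to 45050 in fl/fl. Kupffer cell markers summed to 298 to 2205 in Mye-/- and 70.4 to 699 in fl/fl. Of the 15 hepatocyte genes tested 12 had a higher mean log2 value in Mye-/-, and of the 6 Kupffer cell genes 5 did, with 0 past the threshold in limma and 4 and 3 at an unadjusted p under 0.05. The sum of 15 early genes that cell dissociation is known to induce was 806994 to 884996 in Mye-/- and 618859 to 778437 in fl/fl, ranges that did not overlap. Of these 15, 13 were higher in Mye-/-, 5 at an unadjusted limma p under 0.05. Of 8 erythroid and platelet genes tested 5 were lower, 4 at that p, and of 5 neutrophil genes 3 were lower, 2 at that p. Of all features tested, 6.38% were higher and 4.13% lower at that p. DESeq2 called 3 early, 3 erythroid and platelet, 1 hepatocyte and 1 macrophage identity gene, beside 0.996% of all features it tested. The part of these sums in the results below was not tested.

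None of the fatty acid genes differed between genotypes past the threshold. Of the 36, 34 had at least 10 normalized reads in at least 4 libraries and were tested with all 15288 such features. The counts with an adjusted p under 0.05 were 0 of 34 by limma, 0 by edgeR and 0 by DESeq2, where these tools called 0.0196%, 0.0131% and 0.996% of the features they tested. Without adjustment, limma gave a p under 0.05 for 1 member that was higher in Mye-/- (Cpt1b) and 4 that were lower (Etfa, Etfb, Decr1 and Acaa1a). The same unadjusted rule took 6.38% of all features as higher and 4.13% as lower. Among features with a mean of at least 500 normalized reads it took 7.75% as higher and 7.18% as lower, and 1 and 3 of the 26 members at that level.

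The mean log2 value was lower in Mye-/- for 24 of the 34 members and higher for 10, whereas 45.4% of all features tested were lower. The median log2 fold change, Mye-/- minus fl/fl of log2(normalized reads + 1), was -0.19 over the 34 members and 0.06 over all features. Of the 26 members that averaged at least 500, 17 were lower and 9 higher, with a median of -0.10, beside 50.2% lower and a median of -0.00 over the 7198 features at that level. By role, the median log2 fold change was 0.30 for uptake (3 tested), -0.04 for activation (4), 0.27 for the carnitine shuttle (4), -0.19 for mitochondrial beta-oxidation (12), -0.53 for electron transfer (3), -0.36 for peroxisomal oxidation (5) and -0.21 for regulation (3 of 5). Each rests on few genes, and no difference between roles was tested. Over the alternative settings the median ran from -0.63 to -0.38 for electron transfer and from 0.14 to 0.42 for the shuttle. Those of uptake (-0.23 to 0.38) and activation (-0.16 to 0.07) crossed 0. The regulation median ran from -0.28 to 0.68, but the upper end came with no filter, which added Ppara and Pdk4. In every alternative that tested them, Ucp2 (-0.28 to -0.09) and Ppargc1b (-0.95 to -0.38) stayed below 0.

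**Figure D1:**
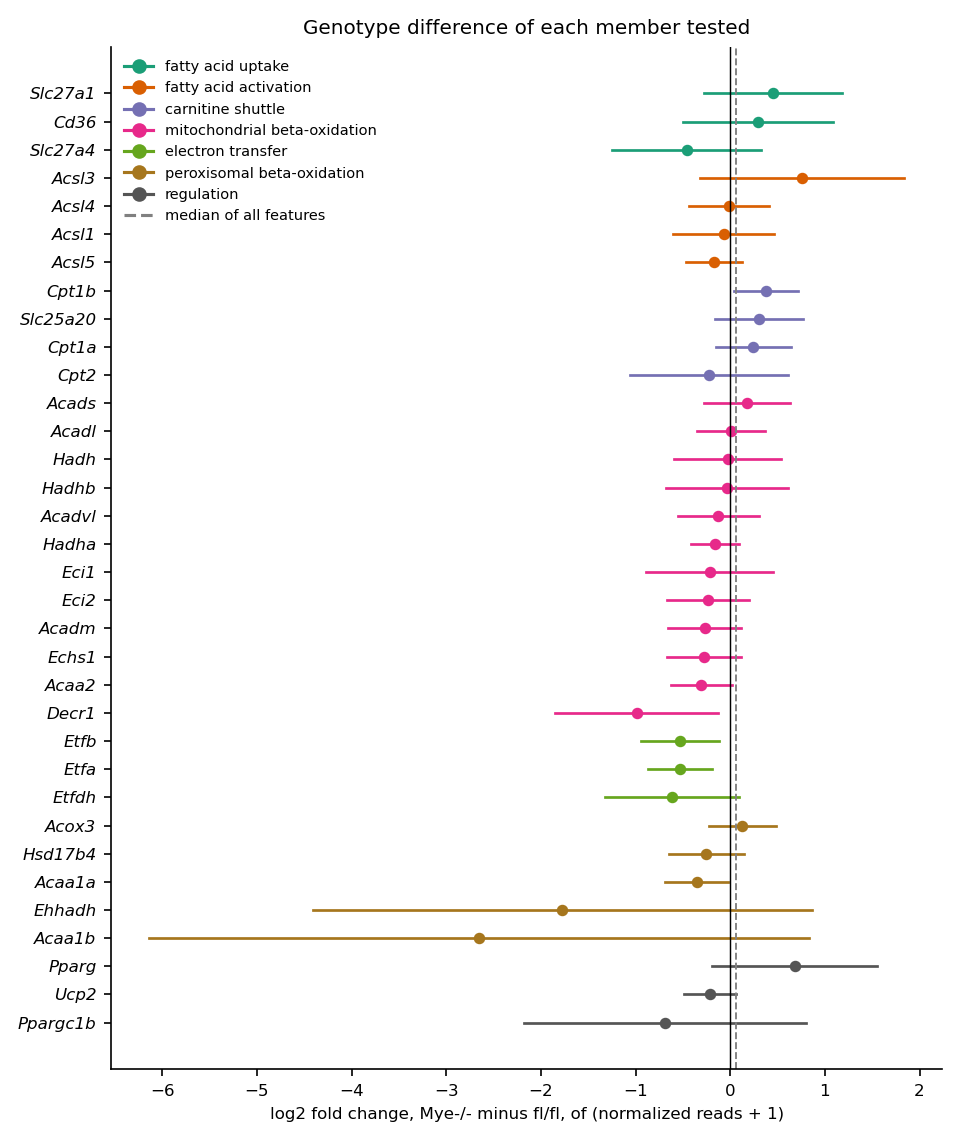
Log2 fold change (MAGL Mye-/- minus MAGL fl/fl, horizontal axis, of normalized reads + 1) of the 34 members tested, as points with 95% confidence intervals from limma, coloured by role, with the median of all features as a dashed line. The intervals of Cpt1b, on the right, and of Decr1, Etfa, Etfb and Acaa1a, on the left, leave out 0, and the widest intervals are those of Acaa1b and Ehhadh, which had libraries at 0.

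Uptake was represented by Cd36, a scavenger receptor that binds long-chain fatty acids and oxidized lipoproteins, and by 2 fatty acid transport proteins. Cd36 (chr5:17781690-17888959, minus strand) had 980.1, 806, 443, 434 and 1334 normalized reads in Mye-/- S8 to S12, against 541, 308, 709 and 1036 in fl/fl S1, S3, S4, S5. The groups overlapped over most of their range, with Mye-/- S12 the highest and fl/fl S3 the lowest library. Its log2 fold change was 0.30 (SE 0.38, 95% interval -0.50 to 1.09, limma adjusted p = 0.821), and it was -0.24 without fl/fl S1 and S3. Slc27a1, which encodes the fatty acid transporter FATP1, averaged 622 ± 223 in Mye-/- and 452 ± 171 in fl/fl. Slc27a4, which encodes FATP4, averaged 572 ± 252 in Mye-/- and 722 ± 172 in fl/fl. The intervals of both took in 0, at -0.28 to 1.18 and -1.24 to 0.32.

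Acsl5 was the most abundant of the acyl-CoA synthetases, which trap fatty acids in the cell by joining them to coenzyme A. Acsl5 (chr19:55253368-55297720, plus strand) had 5267, 4599, 3928, 4844 and 4936 normalized reads in Mye-/- S8 to S12, against 6389, 4949, 5107 and 4851 in fl/fl S1, S3, S4, S5. The groups overlapped, fl/fl S1 lay above the other 8 libraries and Mye-/- S10 below them. The difference on the log2 scale was -0.17 (SE 0.14, limma adjusted p = 0.697), and it was -0.08 without fl/fl S1. Per kilobase of transcript, Acsl5 held 52.6% to 61.9% of the summed level of the 4 synthetases in Mye-/- and 53.7% to 67.7% in fl/fl.

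Acsl1, the form that prevails in adipose tissue and muscle, averaged 1469.6 ± 326 in Mye-/- and 1624 ± 741 in fl/fl. Acsl4, which prefers arachidonic acid, averaged 1879.8 ± 203 in Mye-/- and 1965 ± 657 in fl/fl, with a log2 fold change of -0.01 (95% interval -0.44 to 0.41). Arachidonic acid is also what MAGL releases from 2-arachidonoylglycerol. Acsl3, a synthetase of the endoplasmic reticulum and lipid droplets, was the least abundant, at 268 ± 130.1 in Mye-/- and 151 ± 49.5 in fl/fl. Its feature is joined with Utp14b, and its log2 fold change of 0.76 had an interval of -0.32 to 1.84.

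In the carnitine shuttle, 3 of 4 members had a higher mean log2 value in Mye-/-, among them the feature in which Cpt1b is joined with another gene. The reads of all 4 shuttle members, that joined feature included, made up 0.0236% to 0.0293% of the library in Mye-/- and 0.0186% to 0.0252% in fl/fl. Carnitine palmitoyltransferase 1, on the outer mitochondrial membrane, makes the acylcarnitine and is the controlled step of entry, with Cpt1a as its liver form and Cpt1b as its muscle form. Cpt1a (chr19:3322331-3385734, plus strand) had 3836, 4367, 4083, 4508 and 5031 normalized reads in Mye-/- S8 to S12, against 2327, 4129, 5294 and 3579.9 in fl/fl S1, S3, S4, S5. The Mye-/- values lay inside the fl/fl range, which fl/fl S1 and S4 bound. The estimate on the log2 scale was 0.24 (SE 0.19, limma adjusted p = 0.683), and it was 0.02 without fl/fl S1.

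The feature that holds Cpt1b (chr15:89416405-89429932, minus strand) had 4399, 5024, 4678, 4455 and 2976 normalized reads in Mye-/- S8 to S12, against 3348, 3709.6, 3214 and 2863 in fl/fl S1, S3, S4, S5. Mye-/- S8 to S11 lay above every fl/fl library, and S12 lay among them. On the log2 scale the difference was 0.37 (SE 0.16, 95% interval 0.04 to 0.71, limma adjusted p = 0.437). With age as a covariate it was 0.15, which rests on Mye-/- S8 and S12 alone, because the younger mice were all Mye-/-. That feature is joined in the table with Gm44502 and with Chkb, which encodes choline kinase beta, so reads of the muscle transferase and of the kinase cannot be told apart.

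Cpt2, on the inner membrane, turns the acylcarnitine back into acyl-CoA. Cpt2 (chr4:107903980-107923589, minus strand) had 356, 459.5, 416, 233 and 264 normalized reads in Mye-/- S8 to S12, against 680.1, 458, 218 and 343 in fl/fl S1, S3, S4, S5. The Mye-/- values lay inside the fl/fl range, with a log2 fold change of -0.22 (SE 0.40, limma adjusted p = 0.875), and it was 0.04 without fl/fl S1. Slc25a20, the carnitine-acylcarnitine carrier, averaged 1075 ± 158 in Mye-/- and 879.7 ± 214 in fl/fl, a log2 fold change of 0.31 (95% interval -0.16 to 0.77).

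Of the 12 mitochondrial beta-oxidation genes, 10 had a lower mean log2 value in Mye-/-, and the log2 fold changes ran from -0.99 for Decr1 to 0.18 for Acads. The acyl-CoA dehydrogenases, which open each cycle on chains of different length, lay on both sides of 0. Acadvl (very long chains) averaged 1124 ± 187 in Mye-/- and 1219 ± 171 in fl/fl. Acadl (long chains) averaged 1805 ± 247 in Mye-/- and 1796 ± 231 in fl/fl, and its interval of -0.36 to 0.37 was centred near 0. For Acadm (medium chains) the means were 2119 ± 237 in Mye-/- and 2612 ± 656 in fl/fl, and for Acads (short chains) they were 1223 ± 189.7 in Mye-/- and 1097 ± 287 in fl/fl.

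Echs1, the short-chain enoyl-CoA hydratase, was the most abundant mitochondrial beta-oxidation gene per kilobase. It (chr7:140105712-140116456, minus strand) had 3422, 3669, 2525, 2458 and 2112 normalized reads in Mye-/- S8 to S12, against 3023, 4502, 2927 and 3237 in fl/fl S1, S3, S4, S5. Mye-/- S8 and S9 lay within the fl/fl range and S10 to S12 below it. The log2 fold change was -0.28 (SE 0.19, limma adjusted p = 0.62), and it was -0.14 without fl/fl S3. Acaa2, the mitochondrial 3-ketoacyl-CoA thiolase that closes the cycle, averaged 2425 ± 305 in Mye-/- and 2998 ± 353 in fl/fl, a log2 fold change of -0.31 with an interval of -0.63 to 0.02.

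Hadha and Hadhb encode the alpha and beta subunits of the mitochondrial trifunctional protein, which carries out the last 3 steps on long chains. Hadha (chr5:30118304-30154981, minus strand) had 5512, 6037, 5208, 6071 and 6202 normalized reads in Mye-/- S8 to S12, against 6667, 6428, 6674 and 6163 in fl/fl S1, S3, S4, S5. Only Mye-/- S12 reached into the fl/fl range, and the log2 fold change was -0.16 (SE 0.12, 95% interval -0.42 to 0.10, limma adjusted p = 0.676). Hadhb (chr5:30155253-30184593, plus strand) averaged 622 ± 135 in Mye-/- and 669 ± 288 in fl/fl. Although the products form 1 complex, Hadha stood 3.77 to 6.32 times above Hadhb per kilobase in Mye-/- and 3.08 to 8.96 times in fl/fl. Hadh, the short-chain hydroxyacyl-CoA dehydrogenase, averaged 949 ± 207 in Mye-/- and 1001 ± 419 in fl/fl.

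Oxidation of unsaturated chains needs auxiliary enzymes, and Decr1, the mitochondrial 2,4-dienoyl-CoA reductase, had the lowest fold change of the mitochondrial genes. Decr1 (chr4:15917241-15945507, minus strand) had 259, 190.4, 215, 380.3 and 305 normalized reads in Mye-/- S8 to S12, against 869, 796, 291 and 363 in fl/fl S1, S3, S4, S5. Those of fl/fl S1 and S3 lay far above the other 7 libraries, and fl/fl S4 and S5 lay within the Mye-/- range. Its log2 fold change was -0.99 (SE 0.41, 95% interval -1.85 to -0.13, limma adjusted p = 0.414), and it was -0.31 without fl/fl S1 and S3. Eci1 and Eci2, enoyl-CoA isomerases that move double bonds, averaged 468 ± 140.5 and 1388 ± 249 in Mye-/-, against 538 ± 137 and 1653 ± 426 in fl/fl.

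**Figure D2:**
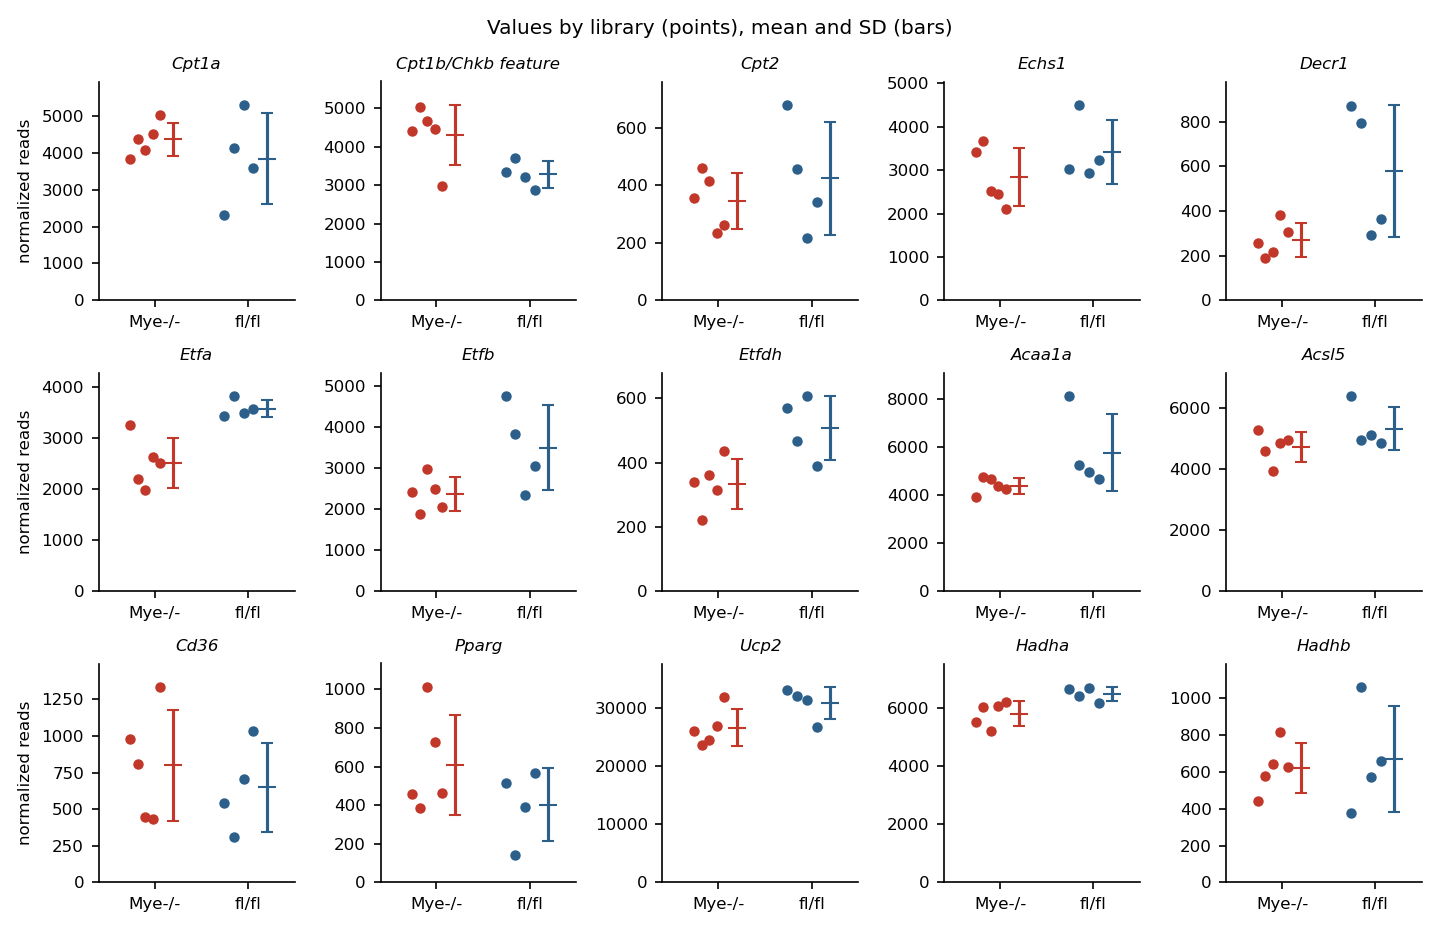
Normalized reads of selected members in each library (points, vertical axis from 0) for MAGL Mye-/- on the left and MAGL fl/fl on the right of each panel, with the mean and SD of 5 and 4 libraries. All 5 Mye-/- points of Etfa, 1970.2 to 3243, lie below the 4 fl/fl points, 3423 to 3816, whereas the groups overlap for the others.

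Electron transfer flavoprotein, made of an alpha subunit (Etfa) and a beta subunit (Etfb), takes electrons from the acyl-CoA dehydrogenases and from several amino acid dehydrogenases, and Etfdh passes them to ubiquinone. All 3 had a lower mean in Mye-/-, and together they took 0.0115% to 0.015% of reads in Mye-/- and 0.0172% to 0.0226% in fl/fl, ranges that did not overlap. The ranges of every other role overlapped, and how often such sums separate over all features was not tested. The sum is not divided by length, so Etfa and Etfb make up most of it. Taken singly, the groups of Etfb and Etfdh overlapped. Fewer cells with such transcripts and less RNA per cell cannot be told apart in sorted bulk samples, here or for any gene above.

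Etfa (chr9:55454432-55512244, minus strand) had 3243, 2198, 1970.2, 2618 and 2498 normalized reads in Mye-/- S8 to S12, against 3423, 3816, 3491 and 3553 in fl/fl S1, S3, S4, S5. It was the only one of the 34 members tested whose groups did not overlap, all 5 Mye-/- libraries being lower. Of all features tested, 1.6% had every Mye-/- library below every fl/fl library and 1.7% every one above. The means were 2505 ± 484 in Mye-/- and 3570.5 ± 172 in fl/fl, with a log2 fold change of -0.53 (SE 0.16, 95% interval -0.86 to -0.20), which did not pass (limma adjusted p = 0.268, DESeq2 adjusted p = 0.159). Mye-/- S8 came nearest to fl/fl. In the 11-week-old mice alone, Mye-/- S8 and S12 against all 4 fl/fl, the log2 fold change was -0.33.

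Etfb (chr7:43444072-43457799, plus strand) had 2417, 1892, 2976, 2499 and 2056 normalized reads in Mye-/- S8 to S12, against 4747, 3814, 2348 and 3041 in fl/fl S1, S3, S4, S5. The values of fl/fl S1 and S3 were the highest, and fl/fl S4 lay among the Mye-/- libraries. The difference on the log2 scale was -0.53 (SE 0.20, 95% interval -0.94 to -0.12, limma adjusted p = 0.352), and it was -0.19 without fl/fl S1 and S3, where that of Etfa was -0.51. The ratio of Etfa to Etfb per kilobase was 0.425 to 0.861 in Mye-/- and 0.463 to 0.954 in fl/fl.

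Etfdh (chr3:79603788-79628767, minus strand) had 339.9, 221, 360.3, 316 and 436 normalized reads in Mye-/- S8 to S12, against 569.8, 466, 607 and 388 in fl/fl S1, S3, S4, S5. Only Mye-/- S12 and fl/fl S5 crossed. The estimate on the log2 scale was -0.61 (SE 0.34, 95% interval -1.32 to 0.09, limma adjusted p = 0.539), and it was -0.38 in 11-week-old mice alone.

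**Figure D3:**
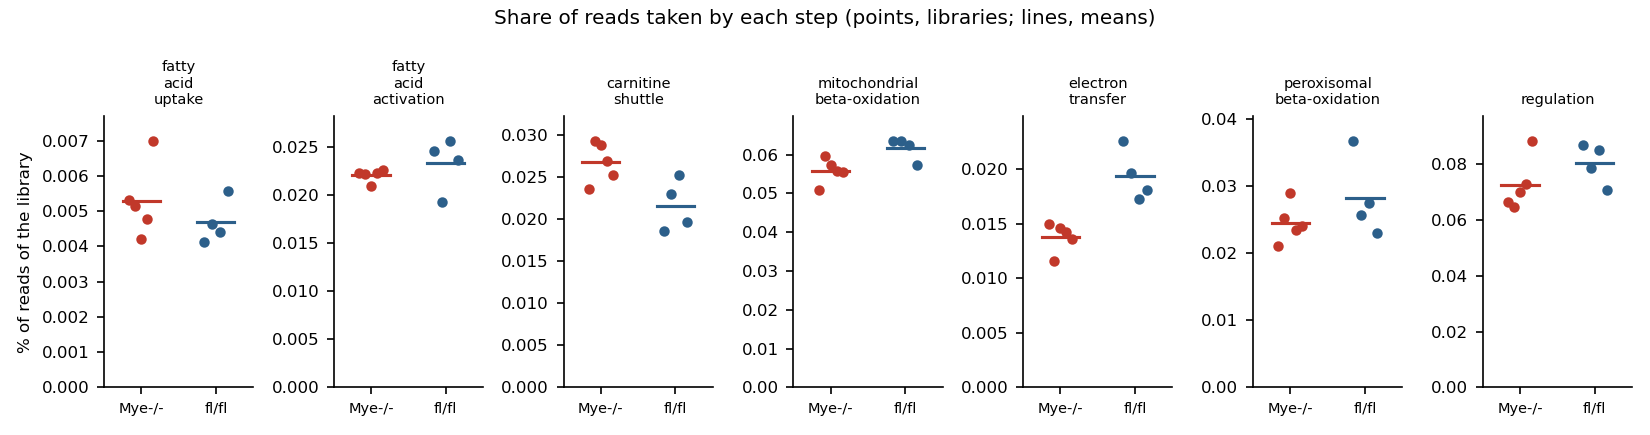
Share of all reads of a library (percent, vertical axis from 0, not divided by length) held by the members of each role, with 1 point for each of 5 MAGL Mye-/- (left) and 4 MAGL fl/fl (right) libraries and a line at each mean. The electron transfer points of Mye-/-, 0.0115% to 0.015%, lie below those of fl/fl, 0.0172% to 0.0226%, and the points of every other role overlap. The carnitine shuttle share includes the feature that joins Cpt1b with Chkb.

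Peroxisomes shorten very long and branched chains, with an acyl-CoA oxidase opening the cycle. Acaa1a, a peroxisomal 3-ketoacyl-CoA thiolase (chr9:119341294-119350298, plus strand), had 3939.8, 4757, 4684, 4385 and 4279.9 normalized reads in Mye-/- S8 to S12, against 8147, 5279, 4987 and 4677 in fl/fl S1, S3, S4, S5. The value of fl/fl S1 was far above the rest, and fl/fl S5 lay within the Mye-/- range. On the log2 scale the difference was -0.36 (SE 0.16, 95% interval -0.69 to -0.02, limma adjusted p = 0.452), and it was -0.13 without fl/fl S1 and S3.

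The Acaa1a feature overlaps those of Myd88 and Wdr48, and it has a near-identical paralog, Acaa1b, so its reads may be shared. Acaa1b had 0, 7.23, 0, 48.1 and 1.71 normalized reads in Mye-/- S8 to S12, against 69.6, 20.3, 23.6 and 10.5 in fl/fl S1, S3, S4, S5. These low values, with 2 Mye-/- libraries at 0, gave a log2 fold change of -2.66 with an interval of -6.14 to 0.83, which depends on the pseudocount. Ehhadh, the L-bifunctional enzyme, was also low, at 0 to 83.7 in Mye-/- and 57.6 to 165 in fl/fl. Hsd17b4, the D-bifunctional enzyme, averaged 2699 ± 698 in Mye-/- and 3194 ± 662 in fl/fl. Acox3, an oxidase of branched chains, averaged 2059.7 ± 248 in Mye-/- and 1892 ± 312 in fl/fl, and its interval of -0.23 to 0.48 took in 0.

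Ppara, the fatty acid receptor that drives this program in hepatocytes, was detected in 1 library. It had 20.9 normalized reads in Mye-/- S9, which are 26 reads, and 0 in the other 4 Mye-/- and all 4 fl/fl libraries. Pdk4, a kinase that shuts pyruvate out of oxidation and a known PPAR target, had 32.5 normalized reads in Mye-/- S8 and 0 in the other 8 libraries. Neither reached the minimum for testing. By counting error alone, a count of 0 allows up to 2.41 to 3.58 normalized reads in a library. The most frequent nonzero count was 26 reads in S8 and 22 in S9, so the true limit may lie higher. Over the other libraries it ran from 10 reads in fl/fl S1 to 72 in fl/fl S4, and it was 54 in Mye-/- S10 and 58 in fl/fl S3.

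Pparg, the PPAR of adipocytes and of lipid-handling macrophages, was measurable. Pparg (chr6:115360951-115490401, plus strand) had 457, 387, 1013, 727 and 461 normalized reads in Mye-/- S8 to S12, against 513, 141, 388 and 566 in fl/fl S1, S3, S4, S5. Mye-/- S10 and S11 lay above all fl/fl libraries and fl/fl S3 below all others. The log2 fold change was 0.68 (SE 0.42, 95% interval -0.19 to 1.55, limma adjusted p = 0.579), and it was 0.24 without fl/fl S3. Ppargc1b, a coactivator of mitochondrial gene programs, averaged 75.8 ± 20.3 in Mye-/- and 125 ± 38.4 in fl/fl.

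Ucp2, which encodes a carrier of the inner mitochondrial membrane, was the most abundant of the 36 genes. Ucp2 (chr7:100493357-100502173, plus strand) had 26047, 23631, 24474, 26893 and 31880.0 normalized reads in Mye-/- S8 to S12, against 32961, 32073, 31319 and 26699 in fl/fl S1, S3, S4, S5. Mye-/- S8, S9 and S10 lay below all fl/fl libraries, and Mye-/- S11 and S12 exceeded fl/fl S5. Its log2 fold change was -0.21 (SE 0.13, 95% interval -0.49 to 0.06, limma adjusted p = 0.59). With age as a covariate it was -0.09, which again rests on Mye-/- S8 and S12 alone.

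Levels of different genes were compared per kilobase of the longest principal transcript in the GENCODE M21 annotation. Ucp2 stood at 6666 ± 809 normalized reads per kilobase in Mye-/- and 7714 ± 700.0 in fl/fl. Etfb followed at 2651 ± 473 in Mye-/- and 3905 ± 1155 in fl/fl, then Acaa1a, Etfa and Echs1. Of the 35 pairs of neighbours in the order by level, only Ucp2 over Etfb had ranges over the 9 libraries that did not overlap. The order was much alike in both genotypes, with a Spearman correlation of 0.987 across the 36 genes, which share libraries and are not independent replicates. At the lower end, the uptake genes Cd36 and Slc27a1 stood at 235 ± 112 and 222 ± 79.7 per kilobase in Mye-/-, against 191 ± 90.1 and 162 ± 61.1 in fl/fl, about as low as Etfdh and Cpt2. Acsl3, Ppargc1b, Ehhadh, Acaa1b, Pdk4 and Ppara lay lower still. In all, 32 of the 36 genes had reads in every library.

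**Figure D4:**
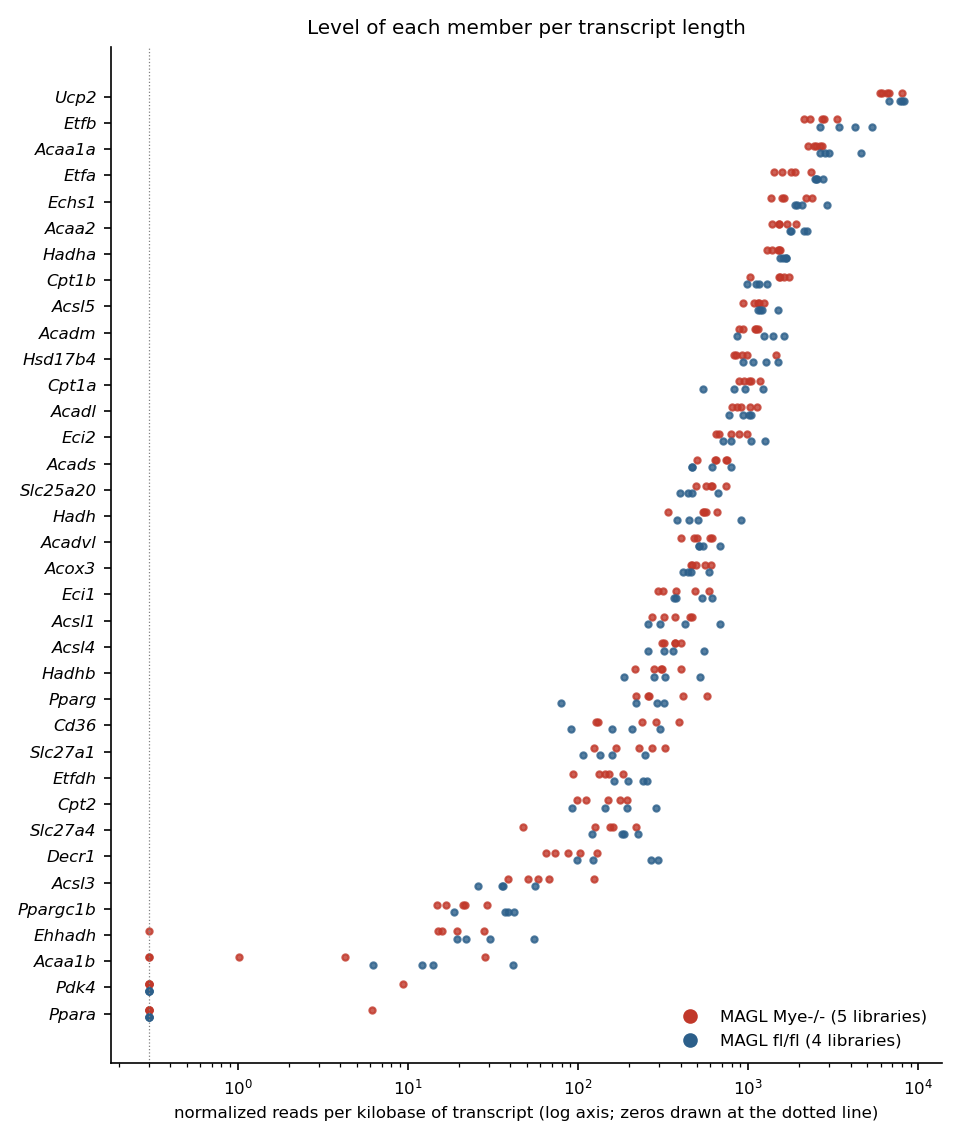
Normalized reads per kilobase of transcript (horizontal log axis) of the 36 members in each MAGL Mye-/- (upper row of points) and MAGL fl/fl (lower row) library, ordered by the mean, with zeros drawn at the dotted line. Ucp2 lies apart from Etfb, and Ppara and Pdk4 lie at 0 in 8 of 9 libraries.

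The libraries of 1 genotype differed among themselves as well. Centred on each gene's mean, the median log2 value of the members was -0.13, -0.03, -0.01, -0.00 and -0.10 in Mye-/- S8 to S12, against 0.20, 0.24, -0.01 and -0.00 in fl/fl S1, S3, S4, S5. Thus fl/fl S4 and S5 were at the level of Mye-/- S9, S10 and S11, and fl/fl S1 and S3 stood higher. Among the 4 fl/fl libraries alone, these 2 held the highest value of 11 and 12 of the 34 members. The coefficient of variation of the 26 members that averaged at least 500 had a median of 17.2% in Mye-/- and 24.7% in fl/fl, beside 17.1% in Mye-/- and 22.5% in fl/fl over all features at that level.

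Other genes of the same pathways were read from 4 further lists, with 11, 15, 16 and 22 genes tested. Of these genes 0 passed in limma, with 1 higher and 2 lower at an unadjusted p under 0.05, beside 6.38% of all features higher and 4.13% lower. In uptake, binding and activation, 4 of 11 tested were higher and 7 lower in Mye-/-, with a median log2 fold change of -0.21. Dbi, the acyl-CoA binding protein, averaged 9759 ± 1123 in Mye-/- and 11596 ± 1440 in fl/fl, and Fabp5, the fatty acid binding protein of macrophages and skin, averaged 1523 ± 136 in Mye-/- and 1925 ± 405 in fl/fl. Got2, a mitochondrial aminotransferase also described as a membrane fatty acid binding protein, averaged 5081 ± 717 in Mye-/- and 5979.8 ± 788 in fl/fl.

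DESeq2 called 1 gene of that list, Slc27a5, a liver bile acid-CoA ligase and fatty acid transporter, named here after its values were seen. It had 0, 22.5, 123, 81.2 and 17.1 normalized reads in Mye-/- S8 to S12 and was at 0 in all 4 fl/fl libraries (DESeq2 adjusted p = 0.0234, limma adjusted p = 0.418). Its highest value was in Mye-/- S10, the library with the highest Alb. The part of hepatocyte RNA in it was not tested.

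In other mitochondrial oxidation genes, 6 of 15 were higher and 9 lower, with a median of -0.20. Acad9, a dehydrogenase that also assembles respiratory complex I, averaged 867 ± 271 in Mye-/- and 1286 ± 297 in fl/fl. Mcee, the methylmalonyl-CoA epimerase that follows the oxidation of odd chains, averaged 924 ± 155 in Mye-/- and 1262 ± 145 in fl/fl.

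In other peroxisomal genes, 10 of 16 were higher and 6 lower, and the median was 0.05. With age as a covariate, which leaves Mye-/- S8 and S12 to carry the genotype difference, this list's median was -0.10. Decr2, the peroxisomal dienoyl-CoA reductase, averaged 145 ± 155 in Mye-/- and 55.7 ± 40.7 in fl/fl. Acot8, a thioesterase, averaged 643 ± 169 in Mye-/- and 803 ± 137 in fl/fl, and Abcd4, a transporter of the ABCD family, averaged 526 ± 49.8 in Mye-/- and 429 ± 81.8 in fl/fl.

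Of other regulators and lipid-sensor targets, 15 of 22 were higher and 7 lower, with a median of 0.03. Nr1h3, which encodes the oxysterol receptor LXR alpha, averaged 1754 ± 533 in Mye-/- and 1268 ± 309 in fl/fl. Plin2, a lipid droplet coat protein, averaged 15674 ± 2544 in Mye-/- and 13060.1 ± 2964 in fl/fl. Tfam, which maintains mitochondrial DNA, averaged 1367 ± 311 in Mye-/- and 1819 ± 635 in fl/fl.

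The fatty acid genes were then set beside other energy pathways. Of 72 respiratory chain subunits, 68 were lower and 4 higher in Mye-/-, with a median of -0.31, and 31 were lower at an unadjusted limma p under 0.05. Over the alternative settings that median ran from -0.38 to -0.24. Atp5g3, an ATP synthase subunit, had 6692, 5213, 5551, 5310.0 and 6193 normalized reads in Mye-/- S8 to S12, against 9442, 8808, 7274 and 8493 in fl/fl S1, S3, S4, S5. All 5 Mye-/- libraries lay below all 4 fl/fl libraries, with a log2 fold change of -0.55 that passed in DESeq2 (adjusted p = 0.00767) and not in limma (adjusted p = 0.218). Ndufb7, a complex I subunit, averaged 2902 ± 384 in Mye-/- and 4237 ± 457 in fl/fl (DESeq2 adjusted p = 0.0458, limma adjusted p = 0.218).

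Of 18 genes of the tricarboxylic acid cycle, 14 were lower and 4 higher, with a median of -0.18. Suclg1, a succinyl-CoA ligase subunit, averaged 1639 ± 54.8 in Mye-/- and 2386 ± 292 in fl/fl, and Idh3a, of isocitrate dehydrogenase, averaged 934 ± 199 in Mye-/- and 1542 ± 392 in fl/fl. Of 17 glycolytic enzymes, 14 were lower and 3 higher, with a median of -0.24. Eno1, an enolase, averaged 27108 ± 2584 in Mye-/- and 36435 ± 6467 in fl/fl, and Hk1, a hexokinase, averaged 4313 ± 411 in Mye-/- and 5593 ± 967 in fl/fl. Limma called 0 genes of these 3 lists, of which 31, 3 and 3 were lower and 0, 1 and 0 higher at an unadjusted p under 0.05. That rule took 4.13% of all features as lower and 6.38% as higher, and 7.18% and 7.75% of those averaging at least 500. DESeq2 called 2, 0 and 0 genes of the 3 lists, beside 0.996% of all features it tested. The median of all fatty acid members tested, -0.19, lay near those of the tricarboxylic acid cycle and glycolysis and above that of the respiratory chain. For the 26 members averaging at least 500 it was -0.10, which is nearer 0 than all 3. The lists differ in level, with a median of 1336 normalized reads for the members, 4526 for the respiratory chain, 2080 for the cycle and 8647 for glycolysis. The differences between lists were not tested.

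**Figure D5:**
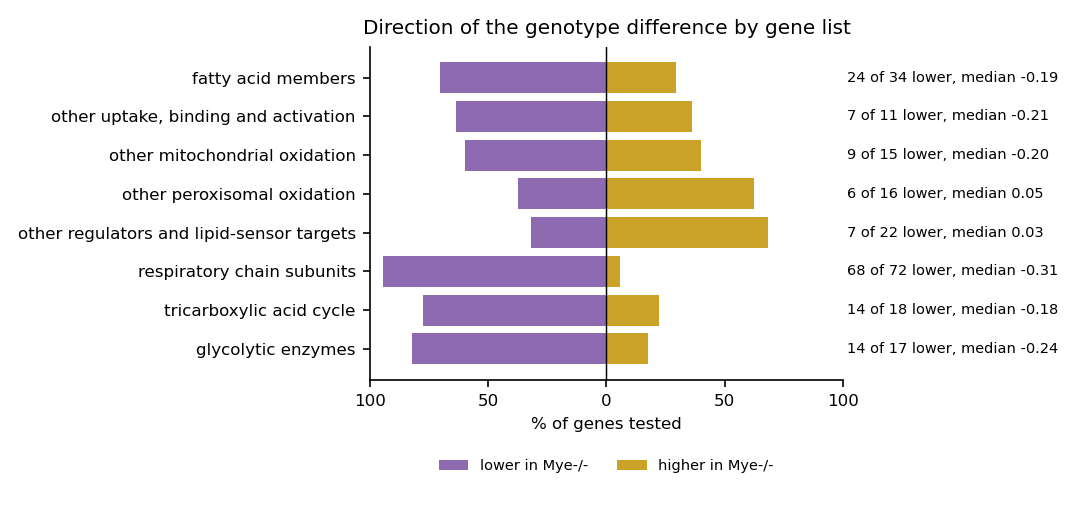
Percentage of the genes tested (horizontal axis) with a lower (left) and a higher (right) mean log2 value in MAGL Mye-/- than in MAGL fl/fl macrophages, for the fatty acid members, the further pathway lists and the comparison lists. Lower genes make up 24 of 34 members and 68 of 72 respiratory chain subunits, whereas higher genes prevail among other peroxisomal genes (10 of 16) and other regulators (15 of 22).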

How the data were processed

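The authors deposited 1 table of normalized read values (a signal scale), in which read counts were divided by 1 DESeq size factor per library, with no log and no length correction, per the file headers. The submitters' processing notes name DESeq, mm10, FastQC, Picard, SAMtools and STAR 2.4.0, and the headers name FAST DB gene models. The counting tool, strand setting and handling of duplicates are not given in the sources used here. Reads of genes that overlap, are antisense to each other or are near-identical copies may therefore be shared. All nonzero values (100% in each library) were whole multiples of the value of 1 read, within 0.01 reads, which gave back whole read counts for count models. Between 66.1% and 68.3% of low counts were even, and no molecular identifiers are recorded, so reads cannot be taken as independent molecules, and the floor of 3 reads covers counting error only.

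Groups were compared with limma 3.58.1 (R 4.3.3, intensity trend) on log2(value + 1), as a two-sided test over the 15288 features that reached a value of 10 in 4 or more libraries. Benjamini-Hochberg adjustment ran over all of them, with a threshold of 0.05. The fold change scale can understate changes of low genes, and can overstate them where libraries are at 0. Acaa1b was -2.66 in limma, -1.43 in edgeR and -1.45 in DESeq2, and Ehhadh was -1.78, -1.00 and -1.02. edgeR 4.0.16 (quasi-likelihood) and DESeq2 1.42.0 were run on the recovered reads and called 2 and 146 features, against 3 by limma. On simulated counts of this design, recovery by limma was 20.9% for 1.5-fold changes, 65.7% for 2-fold and 97.0% for 4-fold, in genes averaging at least 500. There were 11 false calls among the unchanged of the 15288 features. The simulation changed 67, 67 and 66 genes at these folds, drew genes independently, and recovered 14, 44 and 64. More calls loosen the adjusted threshold, and the real fit made 3. These shares therefore do not give the power of the real comparison. Lengths are those of the longest APPRIS principal transcript of GENCODE M21 (GRCm38). Fold changes and sums of marker lists use the deposited scaling.

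The members and lists were chosen with earlier results of these data known. Values in every library are given for members with an unadjusted p under 0.05, those whose groups do not overlap, the most abundant member per kilobase of each role, and Cpt1a, Cpt2, Cd36, Ppara and Pparg. Hadha, Etfdh, Acaa1b, Pdk4 and Atp5g3 were given so outside that rule, after their values were seen. Each further list gives up to 3 genes of smallest p with a mean of at least 50, and each comparison list up to 2. One gene that this rule names is not reported here.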

Additional observations from a re-analysis of the deposited data

Results flagged for a closer look

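Among the 70 combinations of a member and a genotype with any spread, 5 held a library that lay far from the others of its group, and chance alone gives about 1 in 20. Acsl5 was 6389 normalized reads in fl/fl S1 and 4851 to 5107 in the other 3 fl/fl libraries. Hsd17b4 was 3912 in Mye-/- S10 and 2210.1 to 2637 in the other 4 Mye-/- libraries. Acaa1b was 48.1 in Mye-/- S11 and 0 to 7.23 in the others of that genotype. Ppara was 20.9 in Mye-/- S9 and 0 in the others, and Pdk4 was 32.5 in Mye-/- S8 and 0 in the others. With 1 library alone above 0, Ppara and Pdk4 were bound to be flagged, and Acaa1b also had libraries at 0. The rate of about 1 in 20 therefore does not hold for these low genes.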

How the results depend on the processing

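No paired analysis was possible because the genotypes share no replicate numbers. Under all 23 alternatives run, 0 members were called, the median log2 fold change of the members stayed below 0 (-0.25 to -0.10), and 22 of the 34 members kept their direction. Among these alternatives, age as a covariate and 11-week-old mice only gave the same fold changes, as both rest on Mye-/- S8 and S12 against fl/fl. The number of features called, 3 in limma with a pseudocount of 1, was 17 with pseudocounts of 8 and of 50, 12 with a mean of at least 500, 6 with TMM scaling, 8 with quantile normalization, 9 with robust limma, 146 with DESeq2, 0 with age as a covariate and 0 in 11-week-old mice only. It was 0 to 20 when each library was left out: 0 without Mye-/- S8 or S10, 1 without S11, 5 without S9, 20 without fl/fl S5, 7 without S1 and 5 without S3. Members with an unadjusted p under 0.05 numbered 5, against 3 with age as a covariate, 1 in 11-week-old mice and 3 to 6 with a library left out (3 without Mye-/- S8, S9 or S11 or fl/fl S1). Members whose groups do not overlap numbered 1, against 5 in 11-week-old mice and 1 to 6 with a library left out (6 without fl/fl S5). With fewer libraries more groups separate: of all features, 3.3% did not overlap with all 9 libraries, 11.7% in 11-week-old mice, 4.36% to 7.89% with a library left out, and 12.2% and 12.3% without the 2 pairs below. The alternatives that leave out a pair of fl/fl libraries were chosen after seeing the data. Without fl/fl S1 and S3, 9 features were called, 2 members had an unadjusted p under 0.05 and 3 did not overlap. Without fl/fl S3 and S4, 5 features were called and 6 members did not overlap. The cause of these moves was not tested.

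The log2 fold change turned its sign for 12 members, none of them called. With TMM scaling Acsl4 was 0.000477, and with quantile normalization Acadl was -0.0021. With age as a covariate and in 11-week-old mice, the values were 0.11 for Acsl4, -0.17 for Acadl, -0.015 for Acads, 0.071 for Hadh and 0.21 for Eci1. Without fl/fl S1 and S3, they were -0.24 for Cd36, -0.0023 for Cpt1a, 0.29 for Cpt2, -0.13 for Acadl, 0.0016 for Acadm, 0.093 for Eci1 and 0.066 for Eci2. Without fl/fl S3 and S4, they were -0.042 for Cd36, 0.039 for Acsl1, -0.074 for Acadl, 0.28 for Hadhb and 0.12 for Hadh. With each library left out, the ranges were -0.016 to 0.57 for Cd36, -0.27 to 0.20 for Acsl1, -0.17 to 0.19 for Acsl4, -0.50 to 0.042 for Cpt2, -0.086 to 0.063 for Acadl, -0.27 to 0.22 for Hadhb and -0.18 to 0.23 for Hadh. Etfa ranged from -0.63 to -0.33 over all alternatives. Genes with few reads, such as Acaa1b, Ehhadh, Ppara and Pdk4, are limited by depth.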
